A study of Sus scrofa with 18 samples.

Results

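The comparison described here sets 3 libraries of fresh 4-cell embryos against 3 libraries of fresh 2-cell embryos of the pig, out of 18 libraries in the study. The embryos were cloned, that is, made by somatic cell nuclear transfer. In it a cultured cell from the ear of a Diannan miniature pig replaces the chromosomes of an in vitro matured oocyte. The reconstructed zygote was activated by an electric pulse and then cultured with cytochalasin B, and the study counts the hours from what it calls chemical activation. The fresh 4-cell libraries each held RNA of 2 embryos collected 48 h after activation, and the fresh 2-cell libraries each held RNA of 4 embryos collected 24 h after activation, so the stage cannot be told apart from the time in culture or from the number of embryos in a pool. Fresh means that the zygotes were cultured without vitrification. The other libraries came from vitrified zygotes, cooled to a glass and warmed before culture, at the same stages, and from blastocysts of both kinds. The study's methods give the 3 libraries of a group as biological replicates.

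Expression was given as FPKM, the fragments of a gene scaled to the length of its exons and to the size of the library, with 0.0001 listed in place of 0. Of 24358 genes listed, 8788 had at least 1 FPKM in at least 3 of these 6 libraries and were tested, among them 7813 with a gene symbol. Differences are on the scale log2(FPKM + 1), 4-cell minus 2-cell, with the standard error of the limma fit, and the added 1 understates the change of genes with a few FPKM. A gene was called at a limma adjusted p under 0.05 with a difference of more than 1 on this scale. FPKM shows the share of a library that a gene takes, and in pooled embryos fewer cells that express a gene cannot be told apart from less RNA per cell.

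In early embryos development first runs on mRNA and protein stored in the oocyte. These maternal mRNAs are cleared by deadenylation and decay while the genome of the embryo starts to be transcribed, and in the pig the main wave of genome activation falls at the 4-cell stage. In a cloned embryo the genome that must be activated is that of the donor cell.

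The numbers of detected genes in the libraries of both stages are given first. At least 1 FPKM was reached by 8618 to 8841 genes in the 4-cell libraries and by 8335 to 8647 genes in the 2-cell libraries, which overlap (exact permutation test, two-sided, p = 0.2, with 0.1 the smallest p that 3 against 3 libraries allow). The 4-cell library of replicate 1 had 12067 genes above the lowest listed value, against 14316 to 14979 in the other 5 libraries. Somatic cells carried over with the oocyte or from the donor were looked for with marker lists. Of 21 cumulus and granulosa markers, 16 stayed under 1 FPKM in all 6 libraries, AMH, LHCGR and CYP11A1 were at the lowest listed value in all of them, and the summed level of the list was 18.4 to 23.2 FPKM in 4-cell embryos and 18.3 to 29.4 FPKM in 2-cell embryos. Of 26 fibroblast markers, 10 stayed under 1 FPKM in all 6 libraries, COL6A1 was at the lowest listed value, and S100A4 made up most of the summed level, which was 69.2 to 213 FPKM in 4-cell embryos and 82.3 to 143 FPKM in 2-cell embryos. Of the 9 fibroblast markers tested, TAGLN, an actin-binding protein, was called lower, with 0.0001, 1.71 and 0.859 FPKM in 4-cell embryos, against 4.44, 3.32 and 5.28 FPKM in 2-cell embryos (-1.62 ± 0.40, adjusted p = 0.0375), in 1 of the 6 fits that left out 1 library. VIM, vimentin, was lower in every 4-cell library and not called (-0.43 ± 0.29). The 9 markers did not move together: 5 had a difference above 0 and 4 below it, with a median of 0.21. None was called higher. The part of carried-over cells in the results was not tested.

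Between the 2-cell and the 4-cell stage 866 genes were called, which is 9.85% of those tested. Of these, 516 genes (5.87%) were higher and 350 genes (3.98%) were lower in 4-cell embryos, and the groups did not overlap in any of the 866. Over all genes tested, the 4-cell libraries lay above the 2-cell libraries without overlap in 15% and below them in 18.2%. The rises were larger than the falls. The median difference was 1.92 among the genes called higher and -1.50 among those called lower, and 89 rises but 7 falls exceeded 3 on the log2 scale. The median over all genes tested was -0.07, and it was -0.09 after quantile normalization and -0.05 after scaling by the median ratio.

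The called genes took up a large part of each library. The genes called higher held 32.8, 38.5 and 33.5% of the summed FPKM in the 4-cell libraries, against 15.3, 11.9 and 17.0% in the 2-cell libraries. The genes called lower held 5.56, 7.42 and 7.29% in the 4-cell libraries, against 21.6, 22.1 and 22.1% in the 2-cell libraries. These genes were selected for the difference, so the shares describe how much RNA was involved and are no further test. The 10 highest genes of a library held 37.4, 37.4 and 32.5% of the summed FPKM in 4-cell embryos, against 25.1, 23.0 and 27.7% in 2-cell embryos (exact permutation test, two-sided, p = 0.1, the smallest possible).

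The number of calls depended on single libraries. It was 255 without the 2-cell library of replicate 3, 410 without that of replicate 1 and 441 without the 4-cell library of replicate 1, and 228 genes (168 higher, 60 lower) were called in all 6 fits that left out 1 library. Replicate 2 stood nearest to the other stage among the rises: its 2-cell library was the highest of its stage in 299 of the 516 genes called higher, and its 4-cell library was the lowest of its stage in 312. Its part in these results was not tested, and without both of these libraries 395 genes were called higher and 147 lower.

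**Figure D1:**
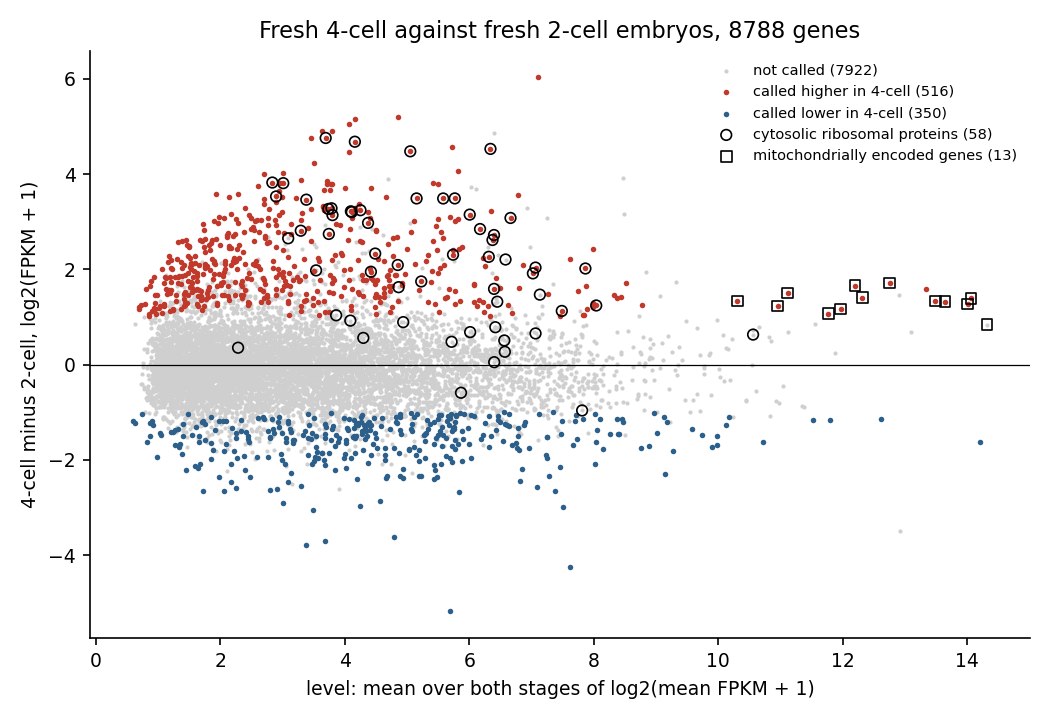
Difference between fresh 4-cell and fresh 2-cell embryos on the log2(FPKM + 1) scale (vertical axis) against the level of the gene over both stages (horizontal axis), 1 point per gene tested. The 516 genes called higher reach 6.03, most of the 58 ribosomal protein genes (circles) lie among them, and the 13 mitochondrially encoded genes (squares) lie at the far right, above 0.

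The largest rises were of genes that were low at the 2-cell stage. CDV3 had 170.5, 107 and 207 FPKM in 4-cell embryos, against 1.47, 8.70 and 2.2 FPKM in 2-cell embryos, a difference of 5.21 ± 0.51 (adjusted p = 0.00302). RACK1, a scaffold protein of the small ribosomal subunit, had 60.7, 68.0 and 197 FPKM in 4-cell embryos, against 0.828, 3.73 and 1.16 FPKM in 2-cell embryos (5.15 ± 0.52, adjusted p = 0.00302). In both genes the highest 2-cell library was that of replicate 2, and it still lay far below every 4-cell library. DIABLO, a mitochondrial protein that binds inhibitors of apoptosis, had 90.6, 42.1 and 96.1 FPKM in 4-cell embryos, against 1.2, 2.26 and 0.956 FPKM in 2-cell embryos (4.91 ± 0.38, adjusted p = 0.00112). ZIM3, a zinc finger protein of the kind that carries a KRAB repressor domain, had 55.9, 77.4 and 67.0 FPKM in 4-cell embryos, against 1.05, 1.2 and 1.52 FPKM in 2-cell embryos. With 4.90 ± 0.27 it had the smallest standard error among the 12 largest rises of genes with a symbol, and its adjusted p was 0.00014.

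Others of these 12 belong to the mitochondrion and the ribosome. TFAM, which packages mitochondrial DNA and is needed for its transcription, had 77.8, 65.6 and 51.8 FPKM in 4-cell embryos, against 0.473, 8.42 and 0.845 FPKM in 2-cell embryos (4.47 ± 0.63, adjusted p = 0.00716). TIMM8A, a chaperone of protein import into mitochondria, had 32.0, 41.6 and 88.7 FPKM in 4-cell embryos, against 0.146, 3.0 and 0.382 FPKM in 2-cell embryos (4.76 ± 0.54, adjusted p = 0.00413). The 4-cell and 2-cell libraries of both genes were far apart, although the 2-cell library of replicate 2 stood above the other two. TPT1, the translationally controlled tumor protein, had 266, 105 and 463 FPKM in 4-cell embryos, against 7.99, 11.5 and 7.73 FPKM in 2-cell embryos (4.57 ± 0.49, adjusted p = 0.00332). ZNF622, a zinc finger protein, rose by 4.23 ± 0.63, and the ribosomal proteins RPL26, RPS26, RPS13 and RPLP2 complete the 12. Each of these 12 was called in all 6 fits that left out 1 library except RPS13, which was called in 5.

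Among genes listed at the lowest value in every 2-cell library, 5 were called, and only STUM and CFAP126 of these have a symbol. STUM had 8.48, 1.41 and 9.28 FPKM and CFAP126, a protein of motile cilia, had 8.77, 2.55 and 1.74 FPKM in the 4-cell libraries. No fold is given for them, since a listed 0 has no known depth behind it. The largest rise of all belonged to a gene without a symbol, which the files describe as an elongation factor 1-alpha of the oocyte form (ENSSSCG00000034113). It was picked out after its values were seen. It had 781, 309 and 1141 FPKM in 4-cell embryos, against 0.761, 65.1 and 7.57 FPKM in 2-cell embryos (6.03 ± 1.12, adjusted p = 0.014). The 2-cell libraries spread widely, and all lay below the lowest 4-cell library.

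**Figure D2:**
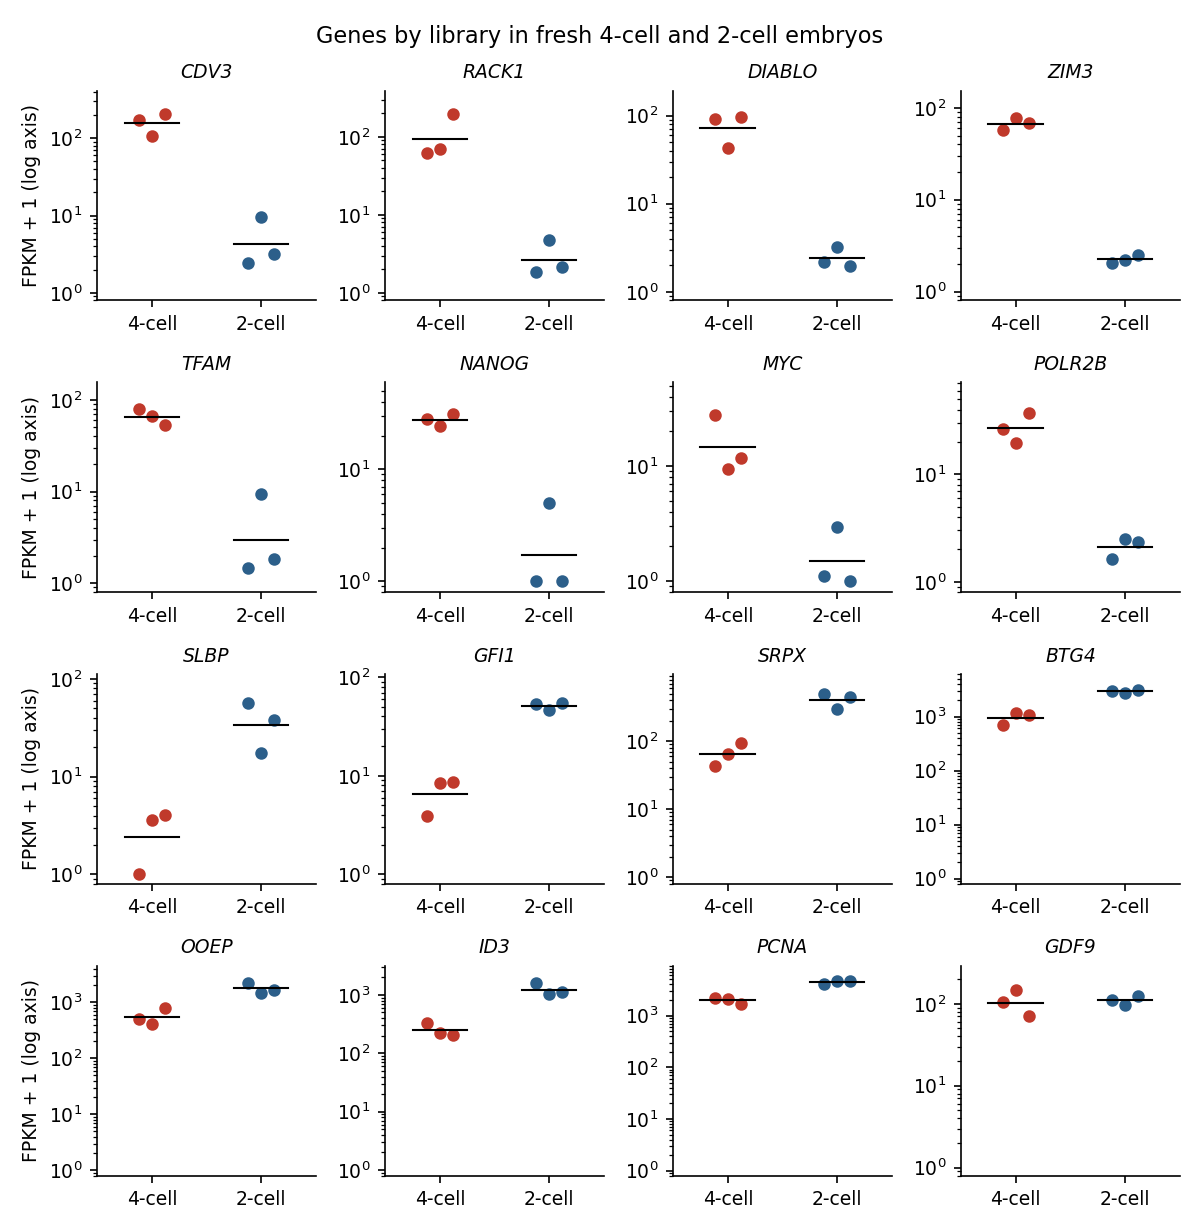
FPKM + 1 on a log axis in each fresh 4-cell library (left, red) and each fresh 2-cell library (right, blue) for 16 genes, with the line at the mean of the log values of a stage. The 8 genes of the upper rows are higher in every 4-cell library, SLBP to PCNA are lower in every 4-cell library, and the libraries of GDF9 overlap.

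Part of a list of transcription factors and other genes linked to genome activation rose. Of 31 tested members of this list, 10 were called higher and none lower, against 5.87% and 3.98% of all genes. The median difference of the 31 was 0.92, against -0.07 over all genes. Not all of the 10 are transcription factors. MYC, a transcription factor that promotes growth and ribosome production, had 26.7, 8.47 and 10.7 FPKM in 4-cell embryos, against 0.102, 1.96 and 0.0001 FPKM in 2-cell embryos (3.29 ± 0.54, adjusted p = 0.0093). TFAP2C, a factor of the early embryo and of the trophoblast, had 33.4, 17.9 and 53.2 FPKM in 4-cell embryos, against 0.900, 8.23 and 1.03 FPKM in 2-cell embryos (3.32 ± 0.64, adjusted p = 0.0156). The 2-cell library of replicate 2 was again the highest of its stage in both. KLF10, a Krüppel-like factor, rose by 2.75 ± 0.53, MYCN by 1.72 ± 0.29, and NFYA, a subunit of the factor that binds CCAAT boxes, by 2.44 ± 0.28. EIF1AD, a relative of the initiation factor EIF1A, rose by 2.55 ± 0.40, with 16.4, 7.65 and 23.6 FPKM in 4-cell embryos, against 1.96, 1.42 and 1.58 FPKM in 2-cell embryos. SP1, YY1, RAD21 and EP300 rose by smaller amounts, 1.47, 1.45, 1.49 and 1.42 on the log2 scale. The count of 10 was 4, 7 and 3 without 2-cell replicate 1, 2 or 3 and 5, 9 and 8 without 4-cell replicate 1, 2 or 3.

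Some genes often named with genome activation were not called. KLF17 had 4.04, 0.312 and 12.5 FPKM in 4-cell embryos, against 0.0001, 3.21 and 0.366 FPKM in 2-cell embryos, and its libraries overlapped (1.32 ± 0.83, adjusted p = 0.35). EIF1AX, an initiation factor used as a marker of embryonic transcription in cattle and pigs, had 18.2, 18.5 and 72.0 FPKM in 4-cell embryos, against 7.62, 15.0 and 11.3 FPKM in 2-cell embryos (1.34 ± 0.52, adjusted p = 0.143). Its libraries did not overlap, and the 4-cell library of replicate 3 stood far above the other two. CTCF, the insulator protein, and CREBBP, an acetyltransferase, differed by -0.01 and -0.05.

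Of 9 tested pluripotency factors 2 were called, both higher (22.2%, against 5.87% of all genes). NANOG, a transcription factor of pluripotent cells, had 27.3, 23.1 and 29.9 FPKM in 4-cell embryos, against 0.0001, 4.04 and 0.0001 FPKM in 2-cell embryos, where it was at the lowest listed value in 2 libraries (4.01 ± 0.59, adjusted p = 0.00719). GDF3, a TGF-beta family ligand, had 11.1, 10.9 and 6.38 FPKM in 4-cell embryos, against 0.248, 1.64 and 0.955 FPKM in 2-cell embryos (2.45 ± 0.37, adjusted p = 0.00734). Both were called in all 6 fits that left out 1 library. LIN28A, SALL4 and ZFP42 were not called, with differences of -0.40, 0.28 and 0.76. Of the 8 tested trophectoderm and hypoblast genes, ID3 and LATS2 were called lower (25%, against 3.98% of all genes). The call of LATS2 (-1.19 ± 0.27) was lost in all 6 fits that left out 1 library, while that of ID3 held in each. ID3, an inhibitor of basic helix-loop-helix factors and a known BMP target, had 335, 223 and 209 FPKM in 4-cell embryos, against 1580.1, 1032 and 1124 FPKM in 2-cell embryos (-2.29 ± 0.27, adjusted p = 0.00462). CDX2, the trophectoderm factor, was not tested because it did not reach 1 FPKM in any of these libraries.

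RNA polymerase II and its factors had a share of falls near that of all genes and a higher share of rises. Of 75 tested members 9 were called higher and 4 lower (12% and 5.33%, against 5.87% and 3.98% of all genes), and their median difference was 0.09. Mediator, which links transcription factors to the polymerase, had calls in both directions, with MED10 and MED31 among the rises. MED10 had 154, 129 and 194 FPKM in 4-cell embryos, against 8.76, 12.1 and 10.2 FPKM in 2-cell embryos (3.81 ± 0.26, adjusted p = 0.000606), and MED31 had 32.5, 23.5 and 28.0 FPKM in 4-cell embryos, against 0.779, 1.60 and 0.846 FPKM in 2-cell embryos (3.82 ± 0.30, adjusted p = 0.00112). POLR2B, a core subunit of the polymerase, had 25.3, 18.6 and 35.9 FPKM in 4-cell embryos, against 0.614, 1.5 and 1.37 FPKM in 2-cell embryos (3.65 ± 0.34, adjusted p = 0.00302). The spread within each stage was small against the distance between the stages in all 3 genes. SUPT4H1, a subunit of the elongation factor DSIF, rose by 3.79 ± 0.62 (adjusted p = 0.00949), POLR2F by 2.09 ± 0.40 and ELL2, a subunit of the super elongation complex, by 1.73 ± 0.42. MED17, another Mediator subunit, fell, with 13.3, 9.09 and 15.5 FPKM in 4-cell embryos, against 35.1, 30.0 and 26.6 FPKM in 2-cell embryos (-1.23 ± 0.28). TAF11 and TAF2, subunits of TFIID, and MNAT1, a subunit of TFIIH, differed by -1.26, -1.16 and -1.01 and were called lower too. Each of the 4 falls was called in 1 of the 6 fits that left out 1 library, and MED10, MED31, POLR2B and SUPT4H1 in all 6. The count of 9 rises was 6, 8 and 4 without 2-cell replicate 1, 2 or 3 and 7, 9 and 10 without 4-cell replicate 1, 2 or 3, and that of 4 falls was 0, 1 and 0 without 2-cell replicate 1, 2 or 3 and 0, 0 and 10 without 4-cell replicate 1, 2 or 3.

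Most genes of cytosolic ribosomal proteins, the building blocks of both ribosomal subunits, rose. Of 58 tested, 37 were called higher and none lower, against 5.87% and 3.98% of all genes, and 46 had every 4-cell library above every 2-cell library, against 15% of all genes. Their median difference was 2.23, against -0.07 over all genes. The median level over these 58 genes was 62.1, 43.4 and 154 FPKM in the 4-cell libraries, against 15.8, 19.9 and 14.3 FPKM in the 2-cell libraries. Together they made up 1.43, 1.10 and 2.59% of the summed FPKM in 4-cell embryos, against 0.727, 0.758 and 0.644% in 2-cell embryos. The stages do not overlap in either measure, and the 4-cell library of replicate 3 was the highest. The count of 37 was 19, 36 and 19 without 2-cell replicate 1, 2 or 3 and 30, 37 and 35 without 4-cell replicate 1, 2 or 3.

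Single ribosomal protein genes differed widely. RPL26 had 39.2, 36.4 and 126 FPKM in 4-cell embryos, against 0.492, 3.36 and 0.490 FPKM in 2-cell embryos (4.76 ± 0.58, adjusted p = 0.00496), the largest rise of the group. RPS26 had 63.3, 33.8 and 174 FPKM in 4-cell embryos, against 0.789, 5.81 and 0.920 FPKM in 2-cell embryos (4.68 ± 0.67, adjusted p = 0.00716). RPS13 had 162, 155 and 879.5 FPKM in 4-cell embryos, against 5.39, 33.7 and 7.22 FPKM in 2-cell embryos (4.53 ± 0.79, adjusted p = 0.0112). In each of these genes the 2-cell library of replicate 2 was several times as high as the other two, and still below the 4-cell libraries. RPLP2, of the ribosomal stalk, had 89.98, 76.2 and 303 FPKM in 4-cell embryos, against 1.75, 11.7 and 4.56 FPKM in 2-cell embryos (4.48 ± 0.65, adjusted p = 0.00716). At the other end, RPS3 was not called and averaged 86.8 ± 34.6 FPKM in 4-cell embryos and 80.3 ± 9.87 FPKM in 2-cell embryos (SD, n = 3 each), with a difference of 0.05 ± 0.30. RPS24 was not called, and it was the only member of the list with every 4-cell library below every 2-cell library, with 138, 173 and 164 FPKM in 4-cell embryos, against 406, 229.6 and 315 FPKM in 2-cell embryos (-0.96 ± 0.26, adjusted p = 0.052). RPS27L, a relative of a ribosomal protein that is known as a p53 target in human cells, was the other member with a difference below 0 (-0.59 ± 0.35). RPS28 was the most abundant member at both stages, with 1883 ± 319 FPKM in 4-cell embryos and 1212 ± 146 FPKM in 2-cell embryos (SD, n = 3 each). Ribosomal protein genes have many near-identical copies in mammalian genomes, between which the counting could split reads, so single members are uncertain.

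**Figure D3:**
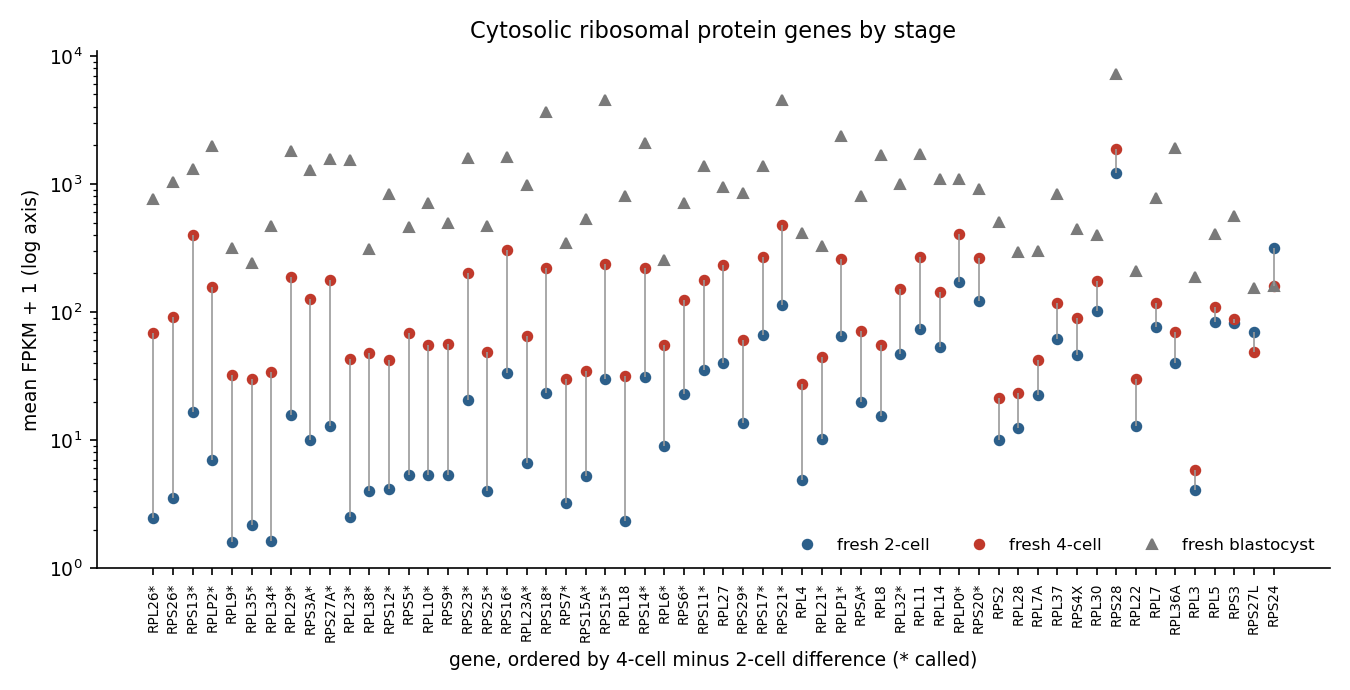
Mean FPKM + 1 on a log axis of the 58 tested ribosomal protein genes in fresh 2-cell embryos (blue), 4-cell embryos (red) and blastocysts (grey triangles), 3 libraries each, ordered by the difference between 4-cell and 2-cell embryos, with called genes starred. The 4-cell mean lies above the 2-cell mean except in RPS27L and RPS24, and the blastocyst mean of each of the 37 called genes lies above its 4-cell mean.

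Other factors of translation rose in part. Of 41 tested initiation factors 10 were called higher (24.4%, against 5.87% of all genes) and none lower (against 3.98% of all genes). Their median difference was 0.16. DENR, which takes part in reinitiation, had 24.6, 16.2 and 36.1 FPKM in 4-cell embryos, against 0.557, 0.464 and 0.744 FPKM in 2-cell embryos (4.00 ± 0.34, adjusted p = 0.002). Subunits of eIF3, the large complex that brings the ribosome to the mRNA, were called for EIF3A (2.12), EIF3F (2.64), EIF3G (2.88) and EIF3H (1.96), while EIF3E (0.16), EIF3I (0.15) and EIF3L (0.14) were not. EIF4E1B, the oocyte form of the cap-binding protein, differed by -0.31 ± 0.48. EEF2 and EEF1B2, elongation factors that were looked at after the values were seen, were both called, with differences of 1.51 ± 0.37 and 2.16 ± 0.53. Instead of 10 initiation factors, the number called was 4, 6 and 4 without 2-cell replicate 1, 2 or 3 and 4, 10 and 6 without 4-cell replicate 1, 2 or 3.

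Factors of ribosome assembly were called at shares somewhat above those of all genes. Of 87 tested factors of ribosome biogenesis and RNA polymerase I, 8 were called higher and 5 lower (9.2% and 5.75%, against 5.87% and 3.98% of all genes), and their median difference was 0.04. FBL, the methyltransferase fibrillarin of the nucleolus, had 34.5, 15.3 and 70.5 FPKM in 4-cell embryos, against 1.73, 1.18 and 1.18 FPKM in 2-cell embryos (3.88 ± 0.49, adjusted p = 0.00533). EMG1, PNO1 and RRP36, which act on the small subunit, rose by 3.51, 2.73 and 2.41. UTP23, also a factor of the small subunit, fell, with 40.6, 78.7 and 71.9 FPKM in 4-cell embryos, against 674, 368 and 497 FPKM in 2-cell embryos (-3.0 ± 0.33, adjusted p = 0.00379). KRR1, of the same pathway, fell by 1.69, and TAF1A, a subunit of the RNA polymerase I factor SL1, fell by 1.57 on the log2 scale. The 8 rises became 4, 5 and 2 without 2-cell replicate 1, 2 or 3 and 5, 12 and 6 without 4-cell replicate 1, 2 or 3, and the 5 falls became 4, 4 and 1 without 2-cell replicate 1, 2 or 3 and 2, 5 and 7 without 4-cell replicate 1, 2 or 3. NPM1, the abundant nucleolar protein nucleophosmin, was not called, at 718, 585 and 555 FPKM in 4-cell embryos against 256, 587 and 592 FPKM in 2-cell embryos.

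Mitochondrially encoded genes, which code for subunits of the respiratory chain, were 6 of the 10 most abundant genes of the 4-cell embryos. Of 13 tested, 12 were called higher (92.3%, against 5.87% of all genes), and ATP6 was not (difference 0.84 ± 0.40, adjusted p = 0.228). Together they made up 31.9, 33.5 and 29.9% of the summed FPKM in 4-cell embryos, against 16.0, 11.7 and 17.9% in 2-cell embryos. The stages do not overlap, and their median difference was 1.33, and 0.86 after quantile normalization. ND4, a subunit of complex I, had 10543, 14739 and 11971 FPKM in 4-cell embryos, against 4252, 2763 and 4528 FPKM in 2-cell embryos (1.71 ± 0.26, adjusted p = 0.00719). ATP8, a subunit of the ATP synthase, had 7420.4, 9887 and 7784 FPKM in 4-cell embryos, against 2993, 2396 and 2537 FPKM in 2-cell embryos (1.66 ± 0.21, adjusted p = 0.00535). Every 4-cell library lay above every 2-cell library in both genes. Mitochondrial genes are cut from shared transcripts, so they are not independent of each other. The count of 12 was 8, 9 and 11 without 2-cell replicate 1, 2 or 3 and 6, 7 and 10 without 4-cell replicate 1, 2 or 3, and it was 2 without both libraries of replicate 2.

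For the nuclear genes of oxidative phosphorylation, 6 of 63 were called higher and 1 lower (9.52% and 1.59%, against 5.87% and 3.98% of all genes), and their median difference was 0.29. COX7A2, a subunit of cytochrome c oxidase, had 385, 267 and 1336 FPKM in 4-cell embryos, against 91.5, 108 and 89.0 FPKM in 2-cell embryos (2.42 ± 0.52, adjusted p = 0.023). UQCR11, NDUFS8 and ATP5F1E rose by 2.01, 1.98 and 1.35, and SDHC, a membrane subunit of succinate dehydrogenase, fell by 1.94. None of these 7 was called in all 6 fits that left out 1 library. The number called higher was 1, 5 and 0 without 2-cell replicate 1, 2 or 3 and 1, 11 and 4 without 4-cell replicate 1, 2 or 3.

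The falls included abundant transcripts, several of them known as maternal. The most abundant gene of the 2-cell embryos, described in the files as similar to gametocyte-specific factor 1 (ENSSSCG00000000296), had 7999.5, 13475 and 10909 FPKM in 4-cell embryos, against 27448, 34145 and 37524 FPKM in 2-cell embryos (-1.63 ± 0.25, adjusted p = 0.00743). BTG4, the adaptor that brings the CCR4-NOT deadenylase to maternal mRNAs in the mouse, had 690.2, 1140.4 and 1082 FPKM in 4-cell embryos, against 3021, 2715 and 3056 FPKM in 2-cell embryos (-1.63 ± 0.24, adjusted p = 0.00719). OOEP, of the subcortical maternal complex, had 497, 413 and 788 FPKM in 4-cell embryos, against 2251, 1454 and 1691 FPKM in 2-cell embryos (-1.70 ± 0.29, adjusted p = 0.011). All 3 were lower in every 4-cell library and were called in all 6 fits that left out 1 library. UBB, a ubiquitin gene and also among the 10 most abundant at the 2-cell stage, fell to 3949.7, 4579 and 4064 FPKM in 4-cell embryos, against 12734, 7427 and 8347 FPKM in 2-cell embryos (-1.14 ± 0.25, adjusted p = 0.0233). The call of UBB held in 1 of these 6 fits.

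Among 20 tested oocyte factors of the cytoplasm and nucleus, the median difference was -0.81 and 16 differences were below 0. None was called higher, and 4 were called lower (20%, against 3.98% of all genes). Beside OOEP, these were MAEL, a factor of the piRNA pathway, with 11.02, 18.2 and 21.4 FPKM in 4-cell embryos, against 68.2, 48.1 and 60.7 FPKM in 2-cell embryos (-1.78 ± 0.30, adjusted p = 0.0106), LHX8, a transcription factor of the growing oocyte (-1.86 ± 0.41), and UCHL1, a ubiquitin hydrolase abundant in oocytes (-1.02 ± 0.26). ZAR1, known in the mouse as a maternal factor needed for the first cleavages, had 3.95, 3.42 and 4.52 FPKM in 4-cell embryos, against 17.3, 6.52 and 7.76 FPKM in 2-cell embryos. Its libraries did not overlap, and it was not called (-1.11 ± 0.38, adjusted p = 0.102). NOBOX, FIGLA and PADI6 were not called either, with differences of -0.71, -0.11 and 0.21. The count of 4 falls was 2, 5 and 1 without 2-cell replicate 1, 2 or 3 and 2, 2 and 4 without 4-cell replicate 1, 2 or 3.

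Secreted oocyte factors and proteins of the egg coat were not among the falls. GDF9, a growth factor secreted by the oocyte, had 103, 145 and 69.5 FPKM in 4-cell embryos, against 109, 95.7 and 125 FPKM in 2-cell embryos (-0.11 ± 0.30, adjusted p = 0.857), and BMP15, its relative, had 520.0, 512 and 269 FPKM in 4-cell embryos, against 549, 336 and 358 FPKM in 2-cell embryos (0.04 ± 0.32, adjusted p = 0.956). The libraries of both overlap. ZP3, of the egg coat, had 44.7, 43.9 and 54.1 FPKM in 4-cell embryos, against 65.1, 32.4 and 26.1 FPKM in 2-cell embryos (0.31 ± 0.35). ZP4, another protein of the coat, was called higher, with 621, 401 and 642 FPKM in 4-cell embryos, against 334, 194 and 127 FPKM in 2-cell embryos (1.42 ± 0.37, adjusted p = 0.0428). That call held in 1 of the 6 fits that left out 1 library. It was the 1 call among 8 tested genes of the coat and of secreted oocyte factors (12.5%, against 5.87% of all genes called higher).

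The list of meiosis had 2 calls. Of 27 tested regulators of meiosis, SYCP3 and CCNB1 were called lower (7.41%, against 3.98% of all genes) and none higher, and the median difference was -0.29. SYCP3, of the synaptonemal complex, had 28.9, 61.0 and 97.3 FPKM in 4-cell embryos, against 205, 178 and 201 FPKM in 2-cell embryos (-1.78 ± 0.40, adjusted p = 0.0263). CCNB1, cyclin B1, had 146, 177 and 230.2 FPKM in 4-cell embryos, against 387, 499.8 and 341 FPKM in 2-cell embryos (-1.15 ± 0.26, adjusted p = 0.0266). MOS, the kinase of meiotic arrest, was not called, at 176, 249.7 and 154 FPKM in 4-cell embryos against 1379.8, 297 and 368 FPKM in 2-cell embryos (-1.49 ± 0.53, adjusted p = 0.113). In MOS the 2-cell library of replicate 1 stood far above the other two. No call in the meiotic list remained without the 2-cell library of replicate 1 or of replicate 3, or without the 4-cell library of replicate 2.

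Factors of mRNA decay were called lower at about the share of all genes and called higher at a higher share. Of 57 tested, 9 were called higher and 2 lower (15.8% and 3.51%, against 5.87% and 3.98% of all genes), and their median difference was 0.11. The 2 that fell are the factors of maternal clearance BTG4 and PABPN1L, a poly(A)-binding protein that works with BTG4 in the mouse. PABPN1L had 2.15, 3.20 and 2.63 FPKM in 4-cell embryos, against 50.1, 12.1 and 13.7 FPKM in 2-cell embryos (-2.56 ± 0.50, adjusted p = 0.0168). Among the 9 that rose were 4 subunits of the RNA exosome, EXOSC3 (3.66 ± 0.64), EXOSC10 (3.17 ± 0.47), EXOSC4 (2.50 ± 0.54) and EXOSC1 (2.03 ± 0.44), and its nuclease DIS3 (1.11 ± 0.27). CNOT9, a subunit of CCR4-NOT, had 14.9, 17.0 and 15.4 FPKM in 4-cell embryos, against 0.932, 1.26 and 1.07 FPKM in 2-cell embryos (3.01 ± 0.27, adjusted p = 0.00236). BTG3 and BTG1, relatives of BTG4, rose by 3.41 ± 0.61 and 2.59 ± 0.45, and PABPC1, the general poly(A)-binding protein, rose by 2.76 ± 0.32. CNOT6L, a deadenylase subunit, and CNOT7 were not called, with differences of 0.25 and 0.23. The 9 rises became 4, 7 and 5 without 2-cell replicate 1, 2 or 3 and 7, 7 and 8 without 4-cell replicate 1, 2 or 3, and the 2 falls became 2, 2 and 2 without 2-cell replicate 1, 2 or 3 and 1, 2 and 3 without 4-cell replicate 1, 2 or 3.

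The largest falls of genes with a symbol were of mixed function. SLBP, which binds the stem-loop of replication histone mRNAs, had 0.0001, 2.62 and 3.01 FPKM in 4-cell embryos, against 56.0, 16.3 and 37.4 FPKM in 2-cell embryos (-3.78 ± 0.61, adjusted p = 0.00901). SQLE, squalene epoxidase of cholesterol synthesis, had 0.609, 6.32 and 19.6 FPKM in 4-cell embryos, against 90.3, 64.1 and 74.1 FPKM in 2-cell embryos (-3.62 ± 0.77, adjusted p = 0.0222). In both, as in the rest of the 12 largest falls, the 4-cell library of replicate 1 was the lowest of its stage. GFI1, a transcriptional repressor best known from blood cells, had 2.90, 7.52 and 7.59 FPKM in 4-cell embryos, against 52.3, 45.1 and 54.0 FPKM in 2-cell embryos (-2.96 ± 0.35, adjusted p = 0.00465). SRPX, a sushi repeat protein, had 42.5, 63.4 and 93.4 FPKM in 4-cell embryos, against 486, 299.6 and 446 FPKM in 2-cell embryos (-2.65 ± 0.33, adjusted p = 0.00533). Both were separated by far more than the spread within a stage. TCEAL9 (-3.05 ± 0.45), FAM221A (-2.92 ± 0.57), IFT43 of intraflagellar transport (-2.86 ± 0.51), the prefoldin subunit PFDN4 (-2.68 ± 0.45), RPP25L (-2.66 ± 0.50), the mitochondrial rRNA methyltransferase MRM2 (-2.64 ± 0.53) and the reductase CBR4 (-2.64 ± 0.57) make up the 12 together with UTP23. Of the 12, SLBP, TCEAL9, UTP23, GFI1, PFDN4 and SRPX were called in all 6 fits that left out 1 library, and CBR4 in 2. SLBP, FAM221A, RPP25L and MRM2 were at 0.0001 FPKM in the 4-cell library of replicate 1. That library had the fewest genes above the lowest listed value (12067), and its part in the size of these falls was not tested.

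Among falls of genes without a symbol, picked out after their values were seen, one described in the files as BCL2 like 10 (ENSSSCG00000004623), a relative of the apoptosis regulator BCL2, was the largest with a description. It had 13.0, 40.0 and 97.0 FPKM in 4-cell embryos, against 996, 552 and 701 FPKM in 2-cell embryos (-4.25 ± 0.61, adjusted p = 0.00716). One described as thioredoxin (ENSSSCG00000005453), the small redox protein, had 50.2, 63.4 and 90.3 FPKM in 4-cell embryos, against 242, 399.5 and 399 FPKM in 2-cell embryos (-2.34 ± 0.31, adjusted p = 0.00577). Both were lower in every 4-cell library and called in all 6 fits that left out 1 library.

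DNA replication genes were called higher at about the share of all genes and called lower at a higher share. Of 47 tested, 5 were called lower and 3 higher (10.6% and 6.38%, against 3.98% and 5.87% of all genes), and 33 differences were below 0, with a median of -0.26. PCNA, the sliding clamp, had 2148, 2059 and 1703 FPKM in 4-cell embryos, against 4073, 4553 and 4581 FPKM in 2-cell embryos (-1.16 ± 0.20, adjusted p = 0.0107). TYMS, thymidylate synthase, had 32.6, 22.9 and 29.3 FPKM in 4-cell embryos, against 139, 117 and 97.6 FPKM in 2-cell embryos (-2.02 ± 0.25, adjusted p = 0.00533). Both were lower in every 4-cell library, and RFC4, of the clamp loader, fell by 1.85 on the log2 scale. The origin recognition complex was split: ORC6 fell (-1.77 ± 0.27, adjusted p = 0.00734), while ORC1 (1.99 ± 0.40, adjusted p = 0.0178) and ORC4 (1.64 ± 0.35, adjusted p = 0.0225) rose. The 5 falls became 5, 4 and 3 without 2-cell replicate 1, 2 or 3 and 4, 4 and 6 without 4-cell replicate 1, 2 or 3, and the 3 rises became 0, 2 and 0 without 2-cell replicate 1, 2 or 3 and 0, 2 and 3 without 4-cell replicate 1, 2 or 3.

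Of 40 tested mitotic cyclins, kinases and subunits of the anaphase-promoting complex, 2 were called higher and 1 lower, which is 5% and 2.5%, not above the 5.87% and 3.98% of all genes. CKS2, a small partner of the cyclin-dependent kinases, had 579, 418 and 561 FPKM in 4-cell embryos, against 136, 285 and 165 FPKM in 2-cell embryos (1.47 ± 0.31, adjusted p = 0.0214). CDC26, of the anaphase-promoting complex, rose by 1.85 ± 0.34. The 2 rises became 1, 3 and 1 without 2-cell replicate 1, 2 or 3 and 1, 2 and 3 without 4-cell replicate 1, 2 or 3, and the 1 fall became 1, 2 and 0 without 2-cell replicate 1, 2 or 3 and 0, 0 and 1 without 4-cell replicate 1, 2 or 3.

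Splicing factors were called lower at the share of all genes and called higher at a higher share. Of 97 tested splicing factors 12 were called higher and 4 lower (12.4% and 4.12%, against 5.87% and 3.98% of all genes), with a median difference of 0.17. SRSF6, a serine and arginine rich splicing regulator, had 15.4, 12.1 and 21.4 FPKM in 4-cell embryos, against 1.2, 0.627 and 1.43 FPKM in 2-cell embryos (3.04 ± 0.33, adjusted p = 0.00332), and DHX15, a helicase that takes spliceosomes apart, rose by 2.49 ± 0.39. SF3B5 and HNRNPAB rose by 2.65 ± 0.56 and 2.57 ± 0.51. The snRNP proteins SNRNP40, SNRPF and SNRPA1 fell, by 1.67, 1.53 and 1.20 on the log2 scale. Of 51 tested nucleoporins and transport receptors 5 were called higher (9.8%, against 5.87% of all genes) and none lower, among them the importins IPO5 (2.37 ± 0.39), KPNA4 (2.12 ± 0.28) and KPNA1 (1.71 ± 0.33) and the mRNA export factor NXT1 (1.91 ± 0.37). For splicing factors the 12 rises became 4, 10 and 5 without 2-cell replicate 1, 2 or 3 and 4, 9 and 9 without 4-cell replicate 1, 2 or 3, and the 4 falls became 0, 2 and 0 without 2-cell replicate 1, 2 or 3 and 0, 0 and 7 without 4-cell replicate 1, 2 or 3. For nuclear transport the 5 rises became 2, 4 and 2 without 2-cell replicate 1, 2 or 3 and 5, 5 and 5 without 4-cell replicate 1, 2 or 3.

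Chromatin enzymes had few calls, at shares near those of all genes. TDG, a glycosylase that takes part in active DNA demethylation, had 25.1, 18.3 and 15.1 FPKM in 4-cell embryos, against 0.151, 5.90 and 0.290 FPKM in 2-cell embryos (3.21 ± 0.64, adjusted p = 0.0174), and it was the 1 call among 11 tested enzymes of DNA methylation. DNMT1, the maintenance methyltransferase, had 1623, 1350.5 and 1588 FPKM in 4-cell embryos, against 3084, 2399.7 and 2544 FPKM in 2-cell embryos. Its adjusted p was 0.0419, and its difference of -0.81 ± 0.21 was under the size required for a call. Of 42 tested histone methylation enzymes, EED of the Polycomb complex (2.96 ± 0.63), SETD2 (1.92 ± 0.30) and NSD1 (1.88 ± 0.35) rose and SETD1A (-1.43 ± 0.38) fell, 7.14% and 2.38% of the list, against 5.87% and 3.98% of all genes. Of 22 histone deacetylases and acetyltransferases, HDAC2 rose (1.25 ± 0.32) and HDAC3 fell (-1.96 ± 0.50), 4.55% of the list each. Of these calls only that of SETD2 held in all 6 fits that left out 1 library, and those of SETD1A, HDAC2 and HDAC3 held in 1, 1 and 2. TET3, the oxidase that acts on the zygote's DNA methylation, and KDM5B, a histone demethylase, were not tested. TET3 had 0.417, 0.672 and 0.374 FPKM in 4-cell embryos, against 1.21, 0.555 and 0.735 FPKM in 2-cell embryos, and KDM5B had 0.770, 0.282 and 9.38 FPKM in 4-cell embryos, against 0.214, 0.210 and 0.387 FPKM in 2-cell embryos, with the highest value in the 4-cell library of replicate 3.

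In protein degradation and folding, calls in both directions stood above the shares of all genes, 5.87% higher and 3.98% lower, by a few genes. Of 41 tested proteasome subunits and assembly factors, 5 (12.2%) were called higher, led by PSMB7 (3.06 ± 0.57, adjusted p = 0.0146), and 3 (7.32%) lower, led by PSMA4 (-1.71 ± 0.40, adjusted p = 0.0312). Of 44 heat shock proteins and cochaperones, 5 rose (11.4%) and 3 fell (6.82%). HSPA8, the constitutive HSP70, had 56.2, 46.0 and 114 FPKM in 4-cell embryos, against 13.2, 24.7 and 9.38 FPKM in 2-cell embryos (2.11 ± 0.43, adjusted p = 0.0193), and PTGES3, an HSP90 cochaperone, rose by 2.21 ± 0.38. AHSA1, which activates HSP90, fell to 57.4, 64.8 and 70.2 FPKM in 4-cell embryos, against 248, 159.9 and 152 FPKM in 2-cell embryos (-1.49 ± 0.26, adjusted p = 0.0112). The 5 proteasome rises became 1, 5 and 1 without 2-cell replicate 1, 2 or 3 and 5, 5 and 5 without 4-cell replicate 1, 2 or 3, and the 3 falls became 0, 2 and 0 without 2-cell replicate 1, 2 or 3 and 0, 0 and 3 without 4-cell replicate 1, 2 or 3. Of the heat shock list, the 5 rises became 3, 4 and 2 without 2-cell replicate 1, 2 or 3 and 3, 4 and 5 without 4-cell replicate 1, 2 or 3, and the 3 falls became 1, 3 and 1 without 2-cell replicate 1, 2 or 3 and 2, 2 and 2 without 4-cell replicate 1, 2 or 3.

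In the list of p53 targets and apoptosis, 4 of 19 rose and 1 fell (21.1% and 5.26%, against 5.87% and 3.98% of all genes). Beside DIABLO these were BAD, which promotes apoptosis, with 5.54, 7.11 and 46.8 FPKM in 4-cell embryos, against 0.0565, 0.127 and 0.226 FPKM in 2-cell embryos (3.59 ± 0.67, adjusted p = 0.0146), BID, of the same kind (2.14 ± 0.39), and MCL1, which opposes it (1.70 ± 0.33). For BAD the 4-cell library of replicate 3 stood far above the other two. The 4 rises became 1, 5 and 1 without 2-cell replicate 1, 2 or 3 and 4, 5 and 4 without 4-cell replicate 1, 2 or 3. Of 9 tested imprinted genes, PHLDA2, which restrains placental growth in the mouse, had 41.7, 30.1 and 14.1 FPKM in 4-cell embryos, against 2.34, 1.86 and 4.34 FPKM in 2-cell embryos (2.87 ± 0.43, adjusted p = 0.00719), and UBE3A, a ubiquitin ligase, rose by 1.46 ± 0.26. PHLDA2 and UBE3A were the 2 imprinted genes called (22.2%, against 5.87% of all genes called higher). Of 11 immediate early and growth signal genes, 9 had a difference below 0, and the median was -0.52. ATF1, a factor of the CREB family, was the 1 called (9.09%, against 5.87% of all genes called higher). It had 113, 61.8 and 124 FPKM in 4-cell embryos, against 11.1, 11.1 and 10.7 FPKM in 2-cell embryos (3.01 ± 0.31, adjusted p = 0.00302), and HK2, a hexokinase, rose by 2.17 ± 0.31, the 1 call among 23 tested genes of glucose use (4.35%, below the share of all genes). The 18 tested aminoacyl-tRNA synthetases and their partners had a median difference of -0.12, with 10 below 0. Called higher were 2 of them, EEF1E1 (2.17 ± 0.41) and QARS (1.45 ± 0.31), which is 11.1% of the list, against 5.87% of all genes. These 2 became 0, 1 and 0 without 2-cell replicate 1, 2 or 3 and 2, 2 and 2 without 4-cell replicate 1, 2 or 3. Of 21 tested genes of the unfolded protein response 1 was called (4.76%, below the share of all genes). GAPDH and ACTB, often used as reference genes, were not called (0.35 ± 0.37 and 0.63 ± 0.26), and GAPDH was low, with 8.80, 4.43 and 7.16 FPKM in 4-cell embryos, against 8.04, 3.84 and 3.79 FPKM in 2-cell embryos.

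**Figure D4:**
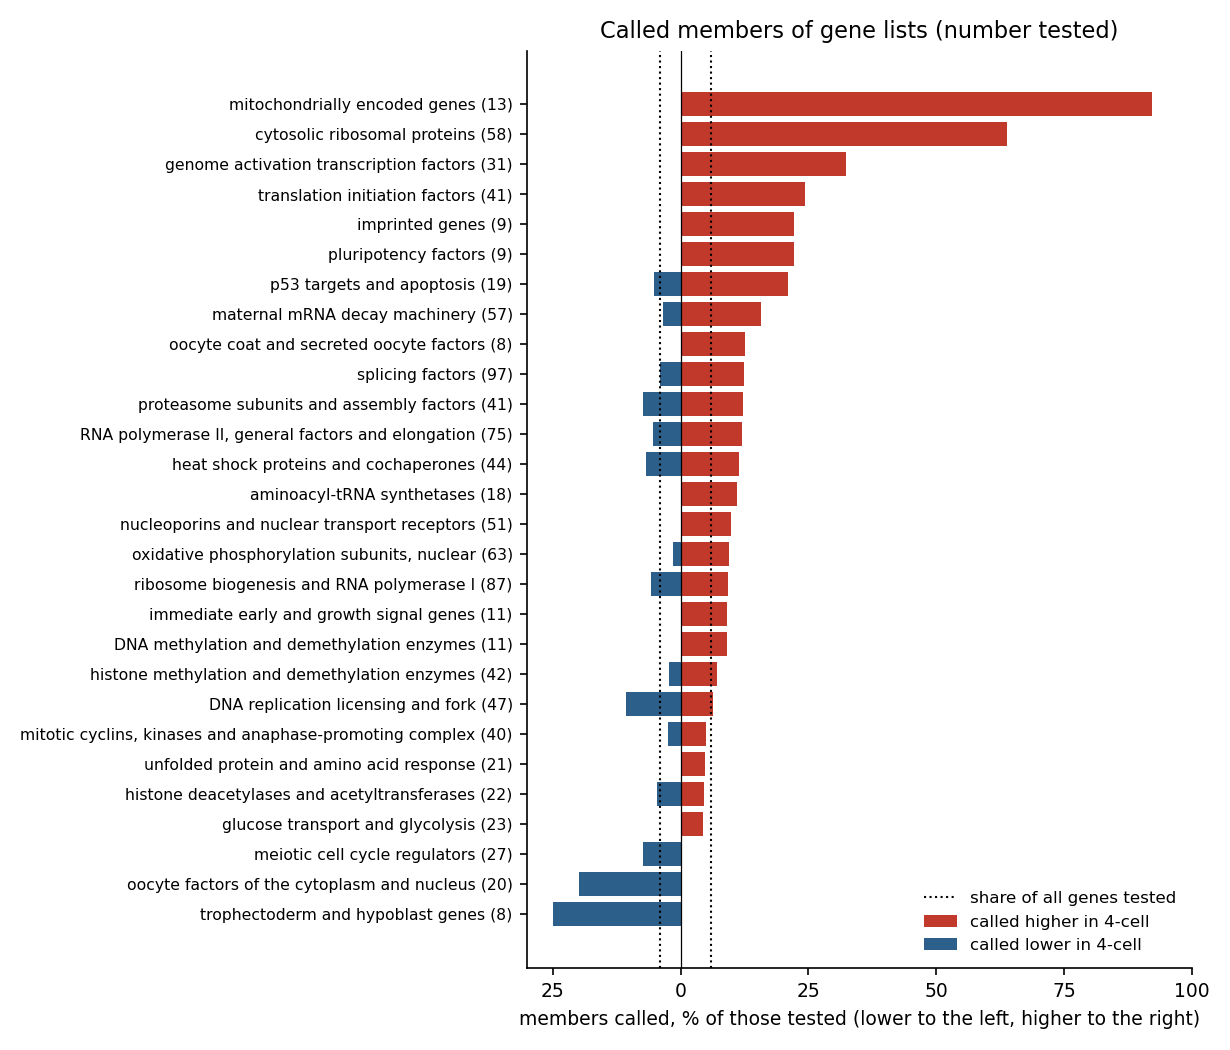
Share of the tested members of each gene list called higher (red, to the right) and lower (blue, to the left) in fresh 4-cell embryos, in percent, with the number tested after the name and dotted lines at the shares over all genes (5.87% higher, 3.98% lower). Mitochondrially encoded genes (12 of 13) and cytosolic ribosomal proteins (37 of 58) stand furthest to the right. The lists of oocyte factors of the cytoplasm and nucleus and of meiosis have calls to the left only. So does the list of trophectoderm and hypoblast genes, where the calls are ID3 and LATS2.

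Where the called genes stood in fresh blastocysts, collected at 144 h as single embryos, was described without a test. Of the 516 genes called higher, 262 had a higher mean in blastocysts than in 4-cell embryos, 182 lay between the 2 early stages and 72 were below the 2-cell mean. The median of their means was 2.51 FPKM in 2-cell embryos, 17.3 FPKM in 4-cell embryos and 18.3 FPKM in blastocysts. In blastocysts all 37 called ribosomal proteins, 8 of 10 initiation factors, 5 of 5 proteasome subunits and 6 of 6 nuclear oxidative phosphorylation genes were above their 4-cell means. Of the called genes of the genome activation list 9 of 10 were below them, as were 7 of 9 genes of RNA polymerase II and its factors and 7 of 9 mRNA decay factors. The share of all genes tested that lay below their 4-cell means in blastocysts was not counted, so these counts have no background beside them. Fewer genes reached 10 FPKM in blastocysts, 2568 to 2611, against 3396 to 3623 in 4-cell embryos. RPL26 averaged 757 ± 73.5 FPKM in blastocysts (SD, n = 3), above each of its 4-cell libraries, and RACK1 averaged 601 ± 24.9 FPKM. CDV3, ZIM3 and NANOG averaged 25.4 ± 3.30, 7.81 ± 1.52 and 1.97 ± 1.63 FPKM in blastocysts, below each of their 4-cell libraries.

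Of the 350 genes called lower, 260 had a lower mean in blastocysts than in 4-cell embryos, and 114 were under 1 FPKM there. The median of their means was 37.4 FPKM in 2-cell embryos, 11.8 FPKM in 4-cell embryos and 3.29 FPKM in blastocysts. BTG4, OOEP, MAEL, PABPN1L and LHX8 were all under 1 FPKM in blastocysts. Maternal genes that were not lower at the 4-cell stage were low in blastocysts as well, with means of 0.799 ± 0.189 FPKM for GDF9, 0.492 ± 0.526 FPKM for BMP15 and 0.350 ± 0.487 FPKM for ZP4. SLBP and SQLE, in contrast, averaged 21.4 ± 1.28 and 49.0 ± 34.0 FPKM in blastocysts, above their 4-cell means. Every blastocyst library of SLBP lay above its 4-cell libraries. The blastocyst libraries of SQLE had 78.1, 11.6 and 57.2 FPKM and overlapped with its 4-cell libraries, of which replicate 3 had 19.6 FPKM. Of the 350 genes, 27 were above their 2-cell means in blastocysts. The counts of falling genes in blastocysts also have no share of all genes beside them.

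The same comparison in embryos from vitrified zygotes, which shares no library with the fresh one, called 345 genes higher (3.93%) and 331 lower (3.77%) of the same 8788, 7.69% in all. Of the 516 genes called higher in fresh embryos, 512 (99.2%) had a difference above 0 in vitrified embryos and 208 (40.3%) were called there too, while 60.3% of the genes called higher in vitrified embryos were called in fresh ones. Of the 350 called lower, 345 (98.6%) had a difference below 0 and 138 (39.4%) were called, against 41.7% of the genes called lower in vitrified embryos that were called in fresh ones. No gene was called in opposite directions. Over all genes tested, the sign was shared by 76.2%. Vitrified 4-cell and 2-cell libraries did not overlap in 440 of the 516 genes, with the 4-cell libraries higher, against 15% of all genes, and in 291 of the 350 genes, with the 4-cell libraries lower, against 24.9% of all genes. The median difference of the 516 genes was 2.25 in vitrified embryos, and that of the 350 genes was -1.65, beside a median over all genes of -0.22. The number of calls in vitrified embryos rests on single libraries. It was 0 without the vitrified 2-cell library of replicate 2 or of replicate 3, 51 without that of replicate 1, and 130 without the 4-cell library of replicate 1, but 1527 and 1557 without the 4-cell libraries of replicates 2 and 3.

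The differences of named genes in both kinds of embryo are set side by side here. CDV3 differed by 6.08 in vitrified embryos and by 5.21 in fresh ones, RACK1 by 5.18 and 5.15, NANOG by 5.32 and 4.01, and TFAM by 5.79 and 4.47. Among the falls, BTG4 differed by -2.92 in vitrified and -1.63 in fresh embryos, OOEP by -3.50 and -1.70, and ID3 by -3.03 and -2.29. The 8 genes of the egg coat and of secreted oocyte factors had a median difference of -0.47 in vitrified and 0.21 in fresh embryos. Above 0 were 3 of the 8 in vitrified and 6 in fresh embryos, and none was called in vitrified embryos. GDF9 differed by -1.06 in vitrified and -0.11 in fresh embryos, and BMP15 by 0.28 and 0.04. The 58 ribosomal protein genes had a median difference of 2.34 in vitrified embryos, with 18 called higher and 1 lower, and 16 of these 18 are among the 37 called in fresh embryos. PABPN1L and CCNB1 differed by -0.40 and 0.05 in vitrified embryos, where neither was called, against -2.56 and -1.15 in fresh ones. The interaction of neither gene was called. Whether the stage difference itself depended on vitrification was tested with an interaction term over the 12 libraries in limma. This test called 0 genes, with 430 at an unadjusted p under 0.05, where the threshold alone would give 439.4, and the smallest adjusted p was 0.465. The median standard error was 0.33 for the fresh difference alone. With 3 libraries a group, large differences between the 2 kinds of embryo could be missed as well as small ones. PABPN1L had an interaction of -2.16 on the log2 scale with an adjusted p of 0.939 in this limma test.

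**Figure D5:**
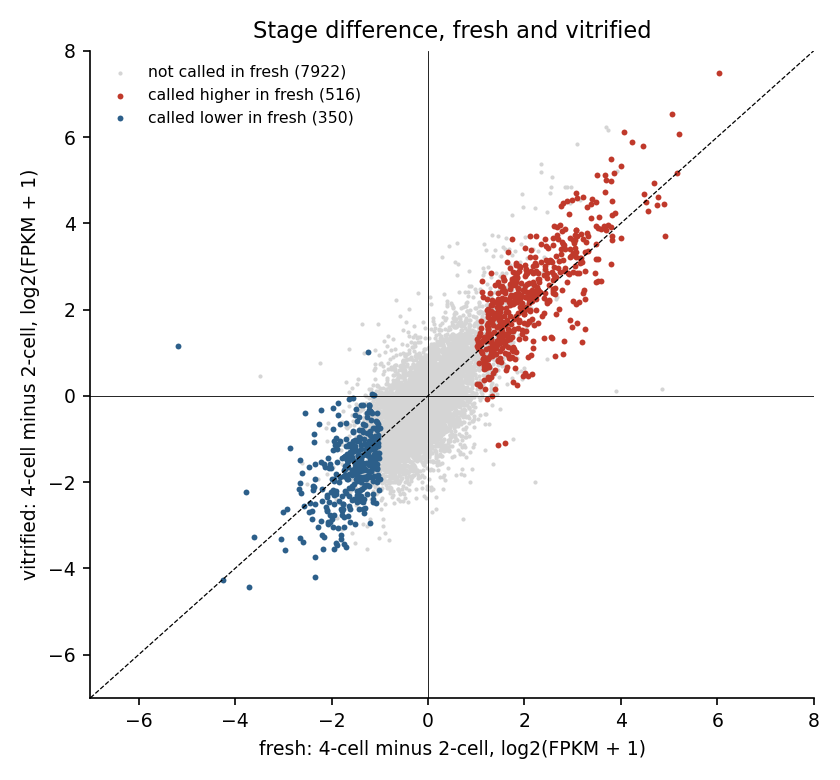
Difference between 4-cell and 2-cell embryos on the log2(FPKM + 1) scale in fresh embryos (horizontal axis) and in embryos from vitrified zygotes (vertical axis), 1 point per gene tested, with the line of equal differences dashed. Of the genes called in fresh embryos, 512 of 516 rises and 345 of 350 falls lie on the same side of 0 in vitrified embryos.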

How the data were processed

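RNA sequencing was done on pools of cloned pig embryos. The FPKM values were made by the authors before deposit with StringTie, from reads aligned with Bowtie2 and HISAT2, and a gene with no signal is listed at 0.0001. The labels also describe a small RNA library protocol, while the study's methods describe a full-length cDNA kit, and the genome build is not given in the sources used here. The deposited tables also hold the authors' own fold changes, p and q values between vitrified and fresh embryos, which were not used. FPKM holds no counts, so the depth of each library is unknown and no counting interval is given. Of the genes listed, 6907 had no symbol in the files, and 951 of these were named from the reference table.

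Genes that reached 1 FPKM in 3 or more of the 6 fresh libraries were tested with limma 3.58.1 (R 4.3.3, lmFit and eBayes with a trend, two-sided, Benjamini-Hochberg adjustment over all genes tested) on log2(FPKM + 1). The same genes were tested in vitrified embryos and, over 12 libraries, for the interaction. Tables and figures came from Python 3.11.15 with pandas 2.3.3 and matplotlib 3.10.9. The limma fit was tested on simulated data.

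The comparison and the gene lists were chosen with earlier results of these data known. Genes were named by a rule of size: the 12 largest rises and falls with a symbol whose groups do not overlap, the largest calls of each list, a fixed set of well known genes, and called genes listed at 0.0001 throughout a stage. Other members of lists, relatives of named genes and genes without a symbol were named after their values were seen. UTP6, CKS1B, SYVN1 and BIRC3, whose symbol and description name different genes, were counted but not described. A planned look at promoter sequences was not done here.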

Additional observations from a re-analysis of the deposited data

How the results depend on the processing

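The values are FPKM with no counts behind them, so how much sequencing depth limits a call is unknown. Beside the 866 calls (516 higher, 350 lower), the count was 769 with 0.1 added in place of 1, 918 after quantile normalization, 824 after median ratio scaling, 706 with a mean of at least 5 FPKM and 896 with the adjusted p alone. The count stayed within 1.5 times of the main one in these settings, and it moved by more in those that follow. Without a filter on low values, which tests more genes, 247 genes were called (157 higher, 90 lower). With all 12 early libraries in a single fit it was 508 (293 higher, 215 lower). With weights per library it was 1524 (854 higher, 670 lower), in a fit whose weights did not converge and gave a weight of 18.6 to the fresh 2-cell library of replicate 3. With the study's threshold on the unadjusted p it was 1495, 17% of the genes tested (819 higher, 676 lower). Without both fresh libraries of replicate 2, a setting chosen after seeing the data, it was 542, with 147 lower. The causes of these moves were not tested.

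Leaving out 1 library at a time gave 255 to 831 calls, 185 to 451 of them higher and 70 to 380 lower. The counts were low without 2-cell replicate 1 (410), 2-cell replicate 3 (255) and 4-cell replicate 1 (441), and the 222 falls without 4-cell replicate 2 were also fewer by more than 1.5 times. In vitrified embryos the 676 calls ranged from 0 to 1557 in this way, and were 454 after median ratio scaling and 622 with a replicate block. The interaction called 0 genes in every setting run.

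Fresh libraries with the same replicate number did not deviate together (correlations of 0.038, -0.036 and 0.032), so no pairing by number was seen. Whether libraries with the same number share an origin was not tested. With a replicate block the fresh comparison called 709 genes (449 higher, 260 lower).

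Of the 142 named genes, 136 stayed on their side of the threshold after quantile normalization, 135 after median ratio scaling and 56 without a filter. The sign turned in 2, neither of them called. GDF9 ranged from -0.37 to 0.16 when 1 library was left out, and BMP15 from -0.12 to 0.35, with -0.25 without both libraries of replicate 2.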

Other observations

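Gene families outside the lists were looked at after the values were seen and are given as counts, with no test, beside 5.87% higher and 3.98% lower over all genes. Of 20 tested subunits of the mitochondrial import machinery with TIMM or TOMM symbols, 5 were called higher and 1 lower in 4-cell embryos, with a median difference of 0.90 on the log2(FPKM + 1) scale. Of 63 mitochondrial ribosomal proteins 8 were called higher and 3 lower, and their median was 0.05. Of 18 tested centromere proteins with CENP symbols none was called higher and CENPM, CENPS and CENPW were called lower, with a median of -0.45. FANC genes of DNA crosslink repair (7 tested) and IFT genes of intraflagellar transport (11 tested) had 2 calls each, all lower. Of 133 genes with ZNF symbols 7 were called higher and 1 lower. No call was made among 25 kinesins or 38 ubiquitin-specific proteases.

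Some genes with a description but no symbol were also seen among the calls. One described as upstream binding transcription factor like 1 (ENSSSCG00000014929) had 18.04, 18.4 and 18.4 FPKM in 4-cell embryos, against 0.00367, 3.49 and 0.151 FPKM in 2-cell embryos (3.48 ± 0.54). One described as a member of the PRAME family (ENSSSCG00000033480) had 4.48, 17.0 and 54.1 FPKM in 4-cell embryos, against 0.0001, 1.28 and 0.0001 FPKM in 2-cell embryos (3.74 ± 0.75). One described as DEAD-box helicase 43 (ENSSSCG00000004287) had 21.9, 20.2 and 16.2 FPKM in 4-cell embryos, against 99.3, 87.5 and 93.3 FPKM in 2-cell embryos (-2.22 ± 0.24), and its libraries lay close together within each stage.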
